A study of Mus musculus with 4 samples.

Results

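Cultured stromal cells of subcutaneous and visceral white fat were compared, 1 library a side. The iWAT_SVF library holds cells of the stromal vascular fraction (SVF) of inguinal white adipose tissue (iWAT), and the eWAT_SVF library holds the same fraction of epididymal white adipose tissue (eWAT). A droplet counted as a cell when its barcode carried 5000 to 75000 UMIs (unique molecular identifiers, which count RNA molecules rather than reads), 200 to 7500 genes and under 10% of its UMIs in mitochondrially encoded genes. This left 7424 iWAT_SVF and 6745 eWAT_SVF cells, 14169 of the 28262 cells that the same rule gave over all 4 libraries of the series. The remaining 2 libraries, iWAT_DFAT and eWAT_DFAT, hold de-differentiated fat (DFAT) cells, obtained from floating adipocytes of the same depots by ceiling culture, and serve here as the other pair in which the depots can be set side by side.

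Both SVF cultures came from chow-fed male C57BL/6J mice, whose age and number are not given for these libraries. Tissue was digested with collagenase, the pelleted cells were grown on plastic in serum-containing medium, and the adherent cells were detached with trypsin, sorted with the dead-cell dye 7-AAD and loaded on a droplet platform that reads the 3′ ends of transcripts. Adherence and growth on plastic select among the cells of the fraction, so the libraries hold what grew in culture and not the tissue. Each depot is represented by 1 library of undifferentiated SVF cells, and depot, culture, library and counting run cannot be told apart in this design. The study asks why cells of these depots differ in their capacity to become adipocytes.

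Adipose stem and progenitor cells (ASPCs) are fibroblast-like cells, marked by the PDGF receptor *Pdgfra*, that can be driven to form adipocytes. Fat depots arise from different parts of the mesoderm, and their stromal cells keep a positional code of homeobox, T-box and zinc finger transcription factors after they are removed from the animal. *Tbx15*, *Shox2* and the *Irx* genes are textbook markers of inguinal stroma, while *Wt1* and *Tcf21* mark stroma of the visceral cavity, whose fat is also covered by a mesothelium.

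The 2 libraries were close in depth. Summed over cells, 199357348 UMIs were counted in iWAT_SVF and 197533020 in eWAT_SVF, with medians of 24930 and 27617 UMIs and of 5119 and 5286 genes per cell. Mitochondrial transcripts made up a median of 2.18% and 2.25% of UMIs. Levels are UMIs per 1000000 UMIs of the library (CPM), and ratios are log2 of iWAT_SVF over eWAT_SVF, so that positive values are higher in iWAT. With 1 library per depot no test across cultures is possible: all 95% intervals (exact Poisson for levels, exact binomial for shares, exact conditional binomial for ratios) cover counting error only, and UMIs of cells from 1 culture are not replicates. A gene without a UMI could still be present at up to 3 counts, which is 0.0150 CPM in iWAT_SVF and 0.0152 CPM in eWAT_SVF. Only 16 barcodes were cells in both libraries. The file header names version 4 of Cell Ranger for iWAT_SVF and version 7.1.0 for eWAT_SVF. Over genes grouped by intron length, the median ratio ranged from -0.01 to 0.22 and was largest for genes with 300000 or more intron bases; in the DFAT pair, whose headers name 1 version, it ranged from -0.04 to 0.56.

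Most cells carried stromal genes, by a marker list that is not specific to ASPCs. Its members *Vim*, *Col1a1* and *Itgb1* also stood at 5487, 1692 and 1617 CPM in iWAT_SVF cells with 3 or more Schwann cell markers. Among 12 ASPC markers, 3 or more had a UMI in 98.7% of iWAT_SVF cells (95% interval 98.5% to 99.0%) and 98.6% of eWAT_SVF cells (98.3% to 98.9%) after each cell was thinned to 5000 UMIs. *Pdgfra* stood at 84.5 CPM in iWAT_SVF and 82.5 CPM in eWAT_SVF, and its partner *Pdgfrb* at 135 and 115 CPM. At 5000 UMIs per cell *Pdgfra* had a UMI in 31.7% of iWAT_SVF cells and 30.5% of eWAT_SVF cells, and unthinned in 73.6% and 74.2%. All 8 adipocyte markers stood under 1 CPM in both libraries. The fat hormone gene *Adipoq* had 0.1003 and 0.157 CPM, *Lep* had no UMI, and the highest of the list, the lipid droplet gene *Plin1*, had 0.286 and 0.764 CPM.

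The libraries differed in the other cells that grew in them. No iWAT_SVF cell carried 3 or more of 10 mesothelial markers after thinning, which allows a share of up to 0.0404%, whereas 428 eWAT_SVF cells did (6.35%, 5.78% to 6.95%). Without thinning the counts were 28 and 585 cells. Schwann cell markers showed the opposite order, with 125 iWAT_SVF cells (1.68%, 1.40% to 2.00%) and no eWAT_SVF cell (up to 0.0445%). Endothelial markers marked 54 cells (0.727%) and 136 cells (2.02%), and immune markers 3 and 25 cells. Summed over each list, mesothelial markers reached 76.5 CPM in iWAT_SVF and 155 CPM in eWAT_SVF, but *Krt19* alone gave 70.7 CPM of the former. Of the other listed markers, *Krt8*, *Lrrn4*, *Msln* and *Upk3b* lay between 0.00502 and 0.0602 CPM in iWAT_SVF and between 11.8 and 19.6 CPM in eWAT_SVF. *Upk1b*, *Krt18*, *Krt7* and *Cldn15* lay between 0.532 and 2.05 CPM in iWAT_SVF and between 13.4 and 31.2 CPM in eWAT_SVF. *Muc16* had no UMI in iWAT_SVF. Schwann markers summed to 29.7 and 1.80 CPM, endothelial markers to 46.3 and 104 CPM and immune markers to 22.5 and 69.1 CPM. Ratios are therefore given below also without the cells that carried 3 or more markers of another type in their full counts (301 cells of iWAT_SVF, 853 of eWAT_SVF), where this moved the ratio of a described gene at 5 CPM or more, other than a marker, by over 1.5 times. Markers lose their UMIs with the cells they mark, by construction. The cells left out are called cells of other types below, but can include stromal cells or doublets. In the 113 iWAT_SVF cells with endothelial markers in full counts, *Tbx15* stood at 75.3 CPM, against 103 CPM in the rest.

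**Figure D1:**
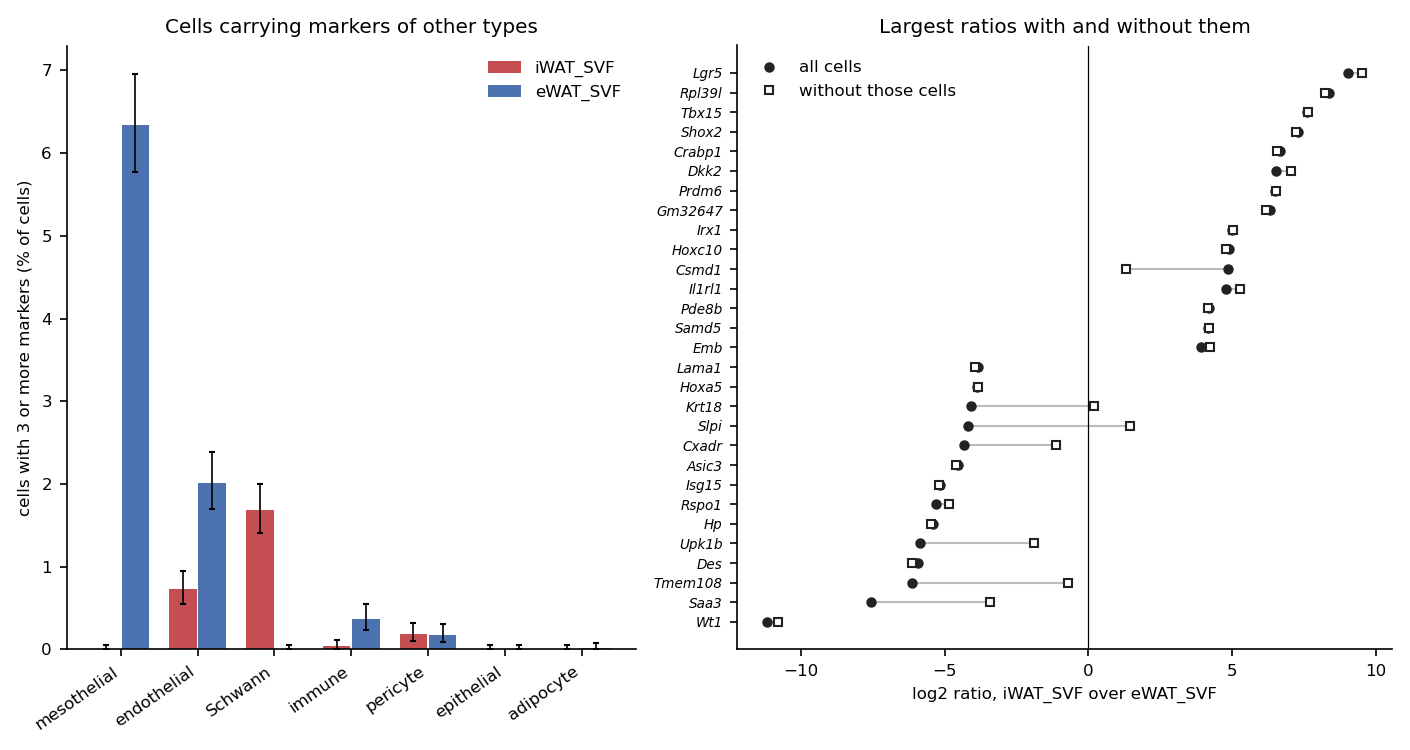
Left, share of cells (%, y axis) with UMIs of 3 or more distinct markers of each cell type after thinning to 5000 UMIs, as bars for iWAT_SVF (red) and eWAT_SVF (blue) with exact binomial 95% intervals; mesothelial-marked cells made up 6.35% of eWAT_SVF and none of iWAT_SVF. Right, log2 ratio (x axis) of genes with the largest ratios in each direction, over all cells (filled circles) and without cells carrying other types' markers (open squares); *Slpi* crossed 0, as did *Krt18*, itself a marker of the cells left out, while *Tbx15*, *Des* and *Isg15* hardly moved.

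Most genes stood at like levels in both cultures. Of 24679 genes with a UMI, 10135 reached 5 CPM in 1 or both libraries, and 9438 of these (93.1%) lay within 2-fold. At least 2-fold higher in iWAT_SVF were 298 genes (2.94%), and at least 2-fold higher in eWAT_SVF were 399 genes (3.94%). A difference of 8-fold or more was seen for 59 genes towards iWAT and 63 towards eWAT. The median ratio was 0.05, with quartiles of -0.15 and 0.24. Counts over gene lists below are to be read against these shares.

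**Figure D2:**
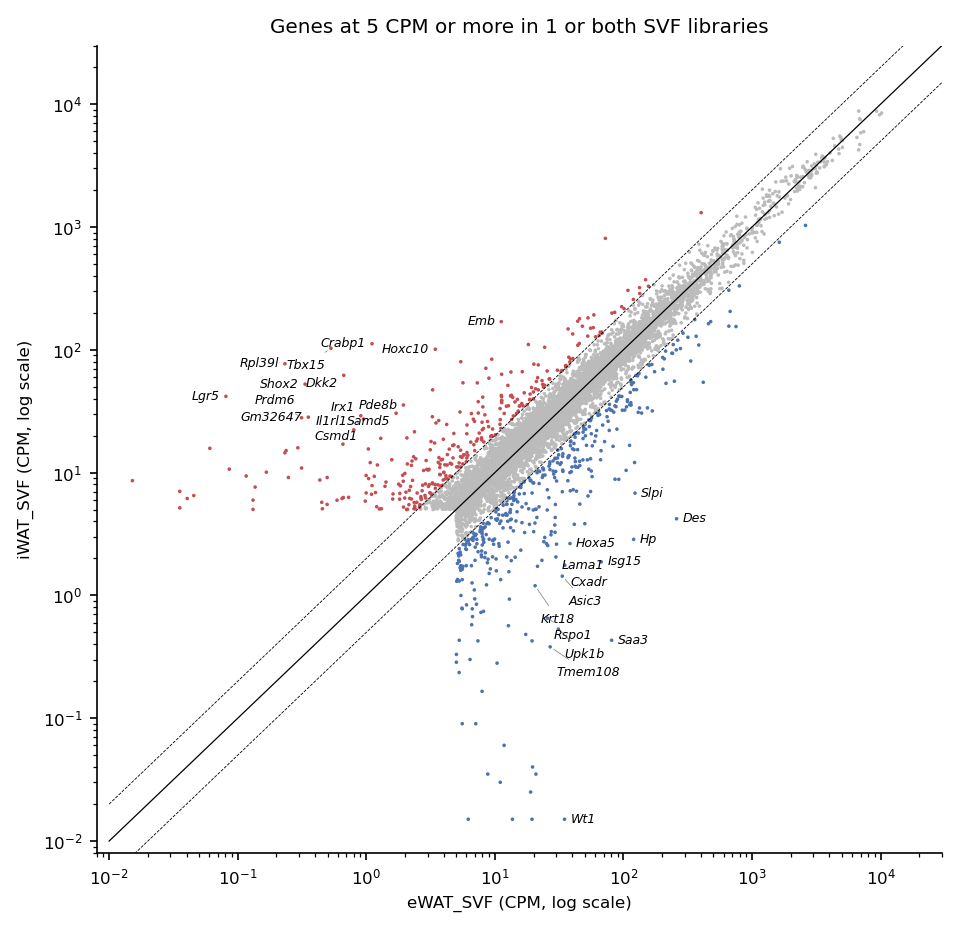
Level of each of 10135 genes in eWAT_SVF (x axis) and iWAT_SVF (y axis), in CPM on log scales, with levels under 3 counts drawn at that floor. Red and blue points are at least 2-fold higher in iWAT_SVF (298 genes) and eWAT_SVF (399 genes), dashed lines mark 2-fold, and genes with the largest ratios in each direction among those at 20 CPM or more are named.

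The list of inguinal transcription factors, written from genes tied to that depot, had the highest median ratio of the 43 gene lists examined. All lists were chosen with earlier results of these data known, so a rank among them is a description and not independent support. The other lists of positional factors, visceral and Hox, had medians of -0.13 and 0.0006. Among 19 factors listed for inguinal fat, 11 reached 5 CPM; 8 were at least 2-fold higher in iWAT_SVF and 2 in eWAT_SVF, with a median ratio of 4.87 against 0.05 over all genes. *Tbx15* (ENSMUSG00000027868, chr3:99240381-99354259, plus strand, GRCm38), a T-box factor of limb and skeletal development, stood at 103 CPM (101 to 104) in iWAT_SVF and 0.532 CPM (0.435 to 0.643) in eWAT_SVF, a 193-fold difference (log2 ratio 7.59, 7.32 to 7.89). *Shox2*, a homeobox factor of the proximal limb, had 52.5 and 0.334 CPM, a 157-fold difference. The eWAT_SVF levels of both genes were above the 3-count floor. The 3 Iroquois homeobox genes at 5 CPM or more followed the same order: *Irx1* had 29.0 and 0.906 CPM, *Irx2* 15.9 and 0.294 CPM, and *Irx5* 10.9 and 0.314 CPM. *En1*, which patterns ventral limb skin, had 31.1 and 5.36 CPM.

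Several inguinal factors too scarce for the 5 CPM limit showed the same order. *Lhx8* had 4.84 CPM in iWAT_SVF and 1 UMI (0.00506 CPM) in eWAT_SVF, a log2 ratio of 9.90 whose counting interval ran from 7.42 to 15.20. *Pitx1*, the hindlimb homeobox factor, had 2.34 and 0.0354 CPM, and *Tbx5*, the forelimb and heart factor, had 1.47 and 0.00506 CPM. For *Tbx4* (0.181 and 0.147 CPM) the counting interval of the ratio included 0, and in eWAT_SVF its level was 1.46 CPM in mesothelial-marked cells and 0.0330 CPM in the rest. A pair of listed genes ran against the list's name: *Alx1*, a homeobox gene of craniofacial mesenchyme, had 2 UMIs in iWAT_SVF and 6.21 CPM in eWAT_SVF (log2 ratio -9.27, -12.32 to -7.42), and *Meis1*, a Hox cofactor, had 38.1 and 88.1 CPM.

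The visceral list was mixed. Of 18 factors, 11 reached 5 CPM; 5 were at least 2-fold higher in eWAT_SVF and 2 in iWAT_SVF, with a median ratio of -0.13. *Wt1* (ENSMUSG00000016458, chr2:105126529-105173616, plus strand), the Wilms tumour zinc finger factor of coelomic tissues, had 3 UMIs in the whole iWAT_SVF library (0.0150 CPM, 0.00310 to 0.0440) and 34.8 CPM (34.0 to 35.6) in eWAT_SVF, with a log2 ratio of -11.18 (-13.45 to -9.63). *Tcf21*, a helix-loop-helix factor of visceral mesenchyme, had 0.0251 and 18.97 CPM (log2 ratio -9.56, -11.19 to -8.34). *Bnc1*, a zinc finger gene of epithelia and mesothelium, had 0.0903 and 5.57 CPM, but 95.3% of its eWAT_SVF UMIs lay in the 585 cells with mesothelial markers, and its log2 ratio was -5.95 over all cells and -1.46 without cells of other types. For *Wt1* that share was 28.6% and the ratio without such cells was -10.78. *Gata6* (22.6 and 50.8 CPM) was at log2 -1.17 over all cells and at -0.68 without them.

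Not every gene that the literature ties to visceral mesoderm was higher in eWAT_SVF. *Tbx18* (19.7 and 19.1 CPM), *Nr2f2* (131 and 144 CPM) and *Osr1* (45.2 and 36.5 CPM) differed little, and *Ebf3* was 17.4 CPM in iWAT_SVF and 3.40 CPM in eWAT_SVF (log2 ratio 2.36). At 5000 UMIs *Ebf3* had a UMI in 7.77% of iWAT_SVF and 1.63% of eWAT_SVF cells, below the 25.9% and 8.82% of their cells with endothelial markers. Its level outside the cells with endothelial markers in full counts (113 and 261 cells) was 17.2 and 3.201 CPM, and its ratio without cells of other types 2.37. Outside both lists, *Prdm6*, a smooth muscle regulator, had 27.9 and 0.314 CPM.

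The differences between libraries were also seen cell by cell. At 5000 UMIs per cell, a *Tbx15* UMI was found in 34.95% of iWAT_SVF cells and 0.356% of eWAT_SVF cells. Among cells with endothelial markers after thinning it was found in 1.85% (1 of 54) and 0.735% (1 of 136). These sets serve as a background, to which free RNA and doublets, not told apart here, can both add. Unthinned, at the median depths above, the shares were 77.2% and 1.39%, and 12.96% and 0.735% in endothelial-marked cells, whose median depths were 15912 and 14696 UMIs. *Wt1* was found in no iWAT_SVF cell and in 14.7% of eWAT_SVF cells at 5000 UMIs, against 1.47% of endothelial-marked eWAT_SVF cells. *Hoxc10* was found at 5000 UMIs in 36.2% and 1.33% of cells and in no endothelial-marked cell of either library. Unthinned it was found in 81.0% and 5.00% of cells, in 7.41% of endothelial-marked iWAT_SVF cells and in none of those of eWAT_SVF. *Hoxa5* was found in 1.24% of iWAT_SVF cells, beside 1.85% (1 of 54) of endothelial-marked cells, and unthinned in 6.57% and 5.56%, so its share in iWAT_SVF was not separable from that background at this number of cells. In eWAT_SVF it was found in 15.7% of cells and 3.68% of endothelial-marked cells.

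The 6 inguinal factors at least 8-fold higher in iWAT_SVF were *Tbx15*, *Shox2*, *Irx1*, *Irx2*, *Irx5* and *Hoxc10*. At equal depth, 73.0% of iWAT_SVF cells (72.01% to 74.04%) and 2.52% of eWAT_SVF cells (2.16% to 2.92%) had a UMI of 1 or more of these. For *Wt1*, *Tcf21* and *Bnc1* the shares were 0.0943% (0.0379% to 0.194%) and 22.4% (21.4% to 23.4%). These genes were picked by their difference, so the shares describe how far the difference is spread over cells. Unthinned, 94.6% of iWAT_SVF cells carried 1 or more of the 6 inguinal factors, against 10.4% in eWAT_SVF.

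The Hox genes, which are laid out in 4 clusters with higher paralogue numbers used towards the tail of the embryo, split by number. Of 22 Hox genes at 5 CPM or more, 7 carried numbers 9 to 13, and 6 of these were at least 2-fold higher in iWAT_SVF and none in eWAT_SVF. The inguinal list also holds *Hoxa9*, *Hoxc9* and *Hoxc10*, so the counts of the inguinal and Hox lists overlap. Of the 15 genes numbered 1 to 8, none was 2-fold higher in iWAT_SVF and 4 were in eWAT_SVF, all of them in the Hoxa cluster. *Hoxc10* (ENSMUSG00000022484, chr15:102966796-102971893, plus strand) had 101 CPM (99.5 to 102) in iWAT_SVF and 3.44 CPM (3.19 to 3.71) in eWAT_SVF, a 29.3-fold difference. *Hoxc11* had 5.17 and 0.0354 CPM, *Hoxa10* 19.2 and 2.07 CPM, *Hoxa9* 11.4 and 2.24 CPM and *Hoxb9* 16.2 and 5.18 CPM. *Hoxc13* (log2 ratio 1.001, 0.86 to 1.14) lay on the 2-fold limit, and *Hoxc9* (47.5 and 26.3 CPM) lay just inside it.

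At the other end, *Hoxa5* (ENSMUSG00000038253, chr6:52201754-52204587, minus strand) had 2.64 CPM in iWAT_SVF and 38.4 CPM in eWAT_SVF, a 14.5-fold difference (log2 ratio -3.86, -3.99 to -3.73), *Hoxa3* had 3.79 and 18.6 CPM, *Hoxa4* 1.30 and 5.05 CPM and *Hoxa7* 13.1 and 41.9 CPM. The Hoxa cluster thus held differences in both directions, with *Hoxa3* to *Hoxa7* higher in eWAT_SVF and *Hoxa9* and *Hoxa10* higher in iWAT_SVF. In the middle of the other clusters the cultures were alike: *Hoxc8* had 86.7 and 100.03 CPM, *Hoxc6* 41.2 and 43.0 CPM and *Hoxb7* 22.2 and 21.2 CPM. Only 1 Hoxd gene, *Hoxd8*, reached 5 CPM (8.31 and 7.26 CPM). Below that limit, *Hoxd9* had 1.16 and 2.25 CPM, against the order of the other genes of its number. The removal of cells of other types left *Hoxa5* at -3.84. In the DFAT pair the ratios of *Hoxc10*, *Hoxa10* and *Hoxa5* were 5.60, 5.32 and -3.24.

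**Figure D3:**
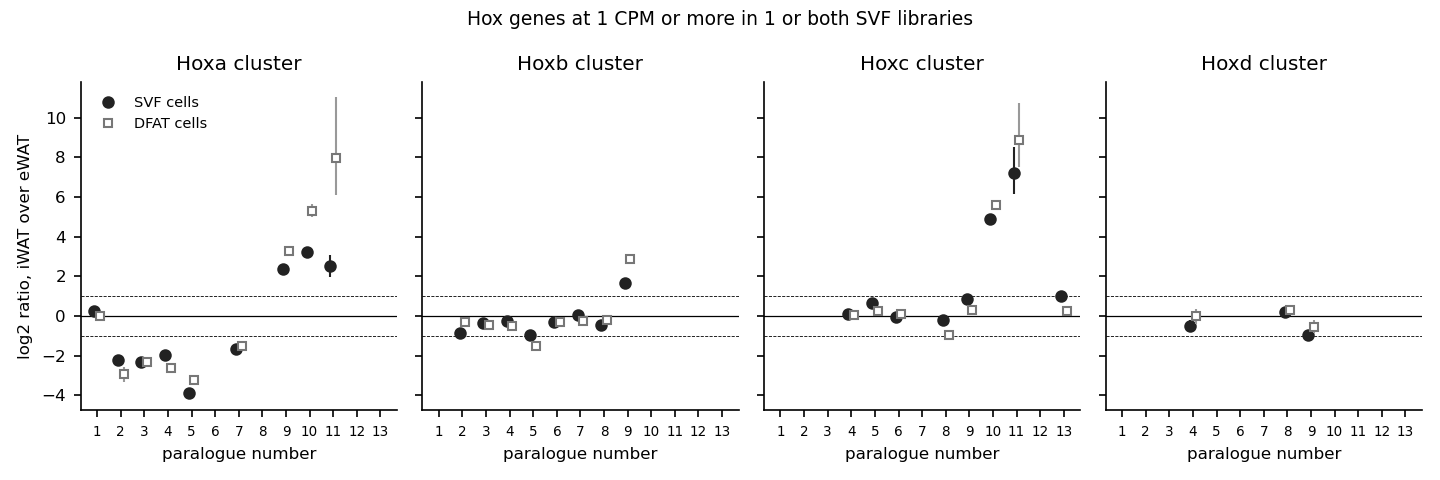
Log2 ratio of iWAT over eWAT (y axis) of each Hox gene at 1 CPM or more, by paralogue number (x axis) and cluster (panels), in SVF cells (filled circles) and DFAT cells (open squares). Bars are exact 95% counting intervals and dashed lines mark 2-fold; values lie below 0 for *Hoxa2* to *Hoxa7* and above 2 for *Hoxa9* to *Hoxa11*, and *Hoxc10* and *Hoxc11* stand highest in the Hoxc panel.

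Of 18 adipogenic transcription factors at 5 CPM or more, 15 lay within 2-fold and the median ratio was -0.10. At least 2-fold higher in iWAT_SVF was 1 (5.56%, against 2.94% of all genes) and in eWAT_SVF 2 (11.1%, against 3.94%). *Pparg*, the nuclear receptor that commands adipocyte formation, had 17.8 CPM in iWAT_SVF and 8.21 CPM in eWAT_SVF (log2 ratio 1.11, 1.03 to 1.20), and was the 1 member at least 2-fold higher in iWAT_SVF. The early factors *Cebpb* (176 and 358 CPM, log2 ratio -1.03) and *Klf5* (9.04 and 18.4 CPM, -1.03) were just past 2-fold in the other direction. Such calls depended on the cells included. *Pparg* stood at 0.97 without cells with 3 or more S or G2 and M genes, and *Cebpb* at -0.99 without cells of other types, both within 2-fold. *Ebf1*, with 704 and 453 CPM, lay within it.

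Genes of committed preadipocytes were spread in both directions, 5 at least 2-fold higher in iWAT_SVF and 8 in eWAT_SVF of 22, with a median of -0.51. *Fabp4*, the adipocyte fatty acid binding protein, had 81.0 and 334 CPM, and *Lpl*, lipoprotein lipase, had 136 and 290 CPM. *Mgp*, matrix Gla protein, had 156 and 660 CPM, with 34.4% of its eWAT_SVF UMIs in cells with mesothelial markers. *Hsd11b1*, which regenerates active glucocorticoid, had 3.31 and 27.5 CPM. In the other direction, *Meox2*, a homeobox gene, had 19.001 and 1.30 CPM and *Gdf10*, a BMP family ligand, 7.84 and 1.11 CPM.

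Early progenitor genes were likewise divided (4 and 2 of 14, median -0.02). *Sema3c*, a secreted semaphorin, had 51.3 and 12.6 CPM, with a ratio of 2.02 over all cells and 2.86 without cells of other types. *Ly6c1* had 26.1 and 8.77 CPM. *Dpp4*, the surface protease of early progenitors, was low in both cultures, at 1.51 and 9.03 CPM. Its log2 ratio was -2.58 over all cells and -1.42 without cells of other types, and its level was 67.6 CPM in mesothelial-marked eWAT_SVF cells and 3.96 CPM in the remaining ones.

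Among 21 genes of a list written as inhibitors of adipogenesis, 4 were at least 2-fold higher in iWAT_SVF and 1 in eWAT_SVF (median 0.30). The list also holds the ASPC marker *Pdgfra*, so its median is not a measure of inhibition. *Dlk1*, the preadipocyte factor, had 15.5 and 4.42 CPM, with ratios of 1.81 and, without cells of other types, 2.68. *Grem1*, a secreted BMP antagonist, had 20.7 and 6.05 CPM, and *Wnt5a* 49.3 and 19.3 CPM. Lipid handling genes at level numbered 15, of which 11 lay within 2-fold (median -0.05).

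Interferon response genes had the lowest median ratio of the 43 lists. Of 41 genes, 31 reached 5 CPM; 16 were at least 2-fold higher in eWAT_SVF and none in iWAT_SVF, with a median ratio of -1.12 against 0.05 over all genes, and 30 of the 31 were higher in eWAT_SVF by any amount. Interferons released by cells that sense foreign or misplaced nucleic acid bind surface receptors, and a complex of transcription factors then enters the nucleus and binds the interferon-stimulated response element (ISRE) in promoters of these genes. The ISRE core was searched as GAAANNGAAA or its reverse complement TTTCNNTTTC in windows from 250 bases before to 50 bases after gene starts of RefSeq (GRCm38.p6). It was found for 18 of the 33 listed genes with a window (54.5%) and for 1079 of 27025 genes in all (3.99%). The windows of *Isg15* and *Ifit1*, members of the list with values given below, are shown 5′ to 3′ in the direction of the gene, with the matches in capitals.
Isg15 promoter, chr4:156200769-156201068, minus strand: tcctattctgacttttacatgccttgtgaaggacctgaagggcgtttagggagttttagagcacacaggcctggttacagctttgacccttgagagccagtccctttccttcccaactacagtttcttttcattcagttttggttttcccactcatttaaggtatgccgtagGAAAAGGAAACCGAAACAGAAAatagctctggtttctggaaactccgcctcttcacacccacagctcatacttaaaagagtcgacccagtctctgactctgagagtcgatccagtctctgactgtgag
Ifit1 promoter, chr19:34640639-34640938, plus strand: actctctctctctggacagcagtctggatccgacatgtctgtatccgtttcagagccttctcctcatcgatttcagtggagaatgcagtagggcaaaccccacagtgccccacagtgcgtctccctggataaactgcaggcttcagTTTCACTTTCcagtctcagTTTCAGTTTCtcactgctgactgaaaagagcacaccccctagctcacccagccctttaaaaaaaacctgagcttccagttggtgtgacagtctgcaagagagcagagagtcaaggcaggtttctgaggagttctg

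The *Isg15* window holds 3 overlapping matches, starting 78 to 66 bases before the gene start, and the *Ifit1* window 2 matches on the other strand, starting 104 and 85 bases before it. A match is a run of letters and not a measured binding site. Of the listed genes at least 2-fold higher in eWAT_SVF, 11 had a window and 8 of these held a match; of those within 2-fold, 13 had a window and 5 held one.

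*Isg15* (ENSMUSG00000035692, chr4:156199424-156200818, minus strand), a ubiquitin-like modifier and the gene of the list with the largest ratio, had 1.88 CPM (1.69 to 2.08) in iWAT_SVF and 67.2 CPM (66.1 to 68.4) in eWAT_SVF, a 35.8-fold difference (log2 ratio -5.16, -5.32 to -5.01). *Ifit1*, which binds viral RNA, had 3.36 and 13.9 CPM. *Oasl2*, of the oligoadenylate synthetase family, had 1.97 and 8.85 CPM. All 3 lay above the floor in both libraries. Named after their values were seen, *Irf7*, the factor that amplifies the response, had 2.06 and 7.87 CPM, *Usp18*, which limits it, 1.34 and 5.57 CPM, and the membrane tether *Bst2* 32.2 and 98.0 CPM.

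The genes of antigen presentation, also named after their values were seen, were mixed. *Psmb8*, a subunit of the immunoproteasome that cuts peptides for presentation, had 11.8 and 26.7 CPM (log2 ratio -1.18). The class I heavy chains *H2-K1* (60.5 and 85.5 CPM) and *H2-D1* (68.2 and 74.1 CPM) stood at ratios of -0.50 and -0.12, with the caution that class I genes are close copies whose reads can be shared. *B2m*, their light chain, was the exception in direction (285 and 181 CPM, log2 ratio 0.65).

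The difference was spread over many cells. After thinning, 3 or more of 39 interferon response genes (the list without *B2m* and *Ifi27*) had a UMI in 20.03% of iWAT_SVF cells (19.1% to 20.96%) and 43.1% of eWAT_SVF cells (42.0% to 44.3%), and 5 or more in 3.21% and 16.4%. Unthinned medians were 5 and 8 genes per cell. *Isg15* had a UMI in 1.04% of iWAT_SVF and 14.8% of eWAT_SVF cells at 5000 UMIs, against none and 7.35% of endothelial-marked cells, a cell type that can also respond to interferon. Without cells carrying markers of other types the list's median ratio was -1.004, and *Isg15* stood at -5.21; in eWAT_SVF its level was 53.1 CPM in mesothelial-marked cells and 68.5 CPM in the rest.

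Contractile genes leaned towards eWAT_SVF. Of 34 smooth muscle and stress fibre genes, 29 were higher there by any amount, 5 of them at least 2-fold, none was 2-fold higher in iWAT_SVF, and the median ratio was -0.52. *Des* (ENSMUSG00000026208, chr1:75360329-75368579, plus strand), desmin, the intermediate filament protein of muscle, was set apart at 4.21 CPM (3.93 to 4.50) and 259 CPM (257 to 261), a 61.5-fold difference (log2 ratio -5.94, -6.04 to -5.84). It was found in 1.21% of iWAT_SVF cells and 44.4% of eWAT_SVF cells at 5000 UMIs, against none and 8.82% of endothelial-marked cells, and its ratio without cells of other types was -6.15. *Myh11*, the smooth muscle myosin heavy chain, had 55.5 and 249 CPM, and *Mylk*, the kinase that activates it, 205 and 675 CPM.

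The abundant contractile genes were nearer to each other. *Acta2*, smooth muscle actin, had 8763 and 9297 CPM (log2 ratio -0.09), *Tagln*, transgelin, 4241 and 6744 CPM (-0.67), and *Tpm2*, a tropomyosin, 2090 and 3111 CPM (-0.57). Of the small heat shock chaperones, *Cryab* had 751 and 1630 CPM and *Hspb1* 331 and 797 CPM. *Ppp1r14a*, an inhibitor of myosin phosphatase, had 33.7 and 154 CPM.

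In the matrix, several elastic fibre genes were higher in iWAT_SVF and several basement membrane genes in eWAT_SVF. *Fbn2*, fibrillin-2, had 58.7 and 8.99 CPM, *Mfap2* 42.5 and 11.2 CPM and *Eln*, elastin, 42.7 and 13.5 CPM. The ratio of *Eln* was 1.66 over all cells and 2.47 without cells of other types. In all, 5 of 22 elastic fibre genes were at least 2-fold higher in iWAT_SVF and 1 in eWAT_SVF, though the median was 0.04. Of 15 basement membrane genes none was 2-fold higher in iWAT_SVF and 4 were in eWAT_SVF, among them the laminin chains *Lama1* (2.06 and 29.8 CPM) and *Lama5* (3.25 and 17.0 CPM) and *Nid2*, nidogen-2 (35.5 and 115 CPM).

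Collagens went both ways (5 and 3 of 24, median 0.19). *Col11a1*, a fibril-nucleating collagen, had 148 and 37.1 CPM, while *Col14a1* had 7.01 and 55.5 CPM and *Col4a6* 4.31 and 29.5 CPM. Without cells of other types the ratio of *Col14a1* went from -2.98 to -3.76. The main fibrillar chains *Col1a1* (2621 and 2226 CPM) and *Col1a2* (3137 and 2914 CPM) were close. *Timp3*, the matrix-bound metalloproteinase inhibitor, had 1308 and 402 CPM, the largest ratio towards iWAT_SVF (1.70) among the 200 genes with the highest mean level. *Lum*, lumican, had 3.88 and 20.5 CPM and *Aspn*, asporin, 34.3 and 8.06 CPM.

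Among signalling genes, the Wnt list had 5 and 6 of 23 members at least 2-fold higher in iWAT_SVF and eWAT_SVF (median 0.22). *Lgr5* (ENSMUSG00000020140, chr10:115450311-115587780, minus strand), a receptor for R-spondins, had the largest ratio towards iWAT_SVF of all genes at 20 CPM or more, with 41.8 CPM (40.9 to 42.7) in iWAT_SVF and 16 UMIs (0.0810 CPM, 0.0463 to 0.132) in eWAT_SVF. It was found in few cells, 7.57% of iWAT_SVF cells at 5000 UMIs and 16.4% unthinned, against 0.0741% and 0.148% in eWAT_SVF. None of the 54 iWAT_SVF cells with endothelial markers after thinning held it. In the 113 cells so marked in full counts its level was 59.9 CPM, against 41.5 CPM in the rest. *Rspo1*, an R-spondin ligand, ran in the opposite direction at 0.652 and 25.7 CPM. *Dkk2*, a secreted Wnt antagonist, had 62.0 and 0.668 CPM. *Sfrp2*, another antagonist, had 1.93 and 23.2 CPM, with a ratio of -3.59 over all cells and -1.92 without cells of other types.

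BMP pathway genes went both ways (7 and 4 of 28, median 0.21). The antagonist *Chrdl1* (8.05 and 1.79 CPM) was higher in iWAT_SVF, and the ligands *Bmp4* (10.7 and 53.8 CPM) and *Gdf6* (2.34 and 15.9 CPM) in eWAT_SVF. The ligand *Gdf10* and the antagonist *Bmper* (53.3 and 214 CPM) ran the other way. *Inhbb*, an activin subunit, had 3.74 and 29.2 CPM.

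In the IGF system *Igfbp2*, a binding protein, had 54.3 and 417 CPM and *Igfbp3* 30.9 and 130 CPM, while *Igfbp5* had 25.4 and 3.48 CPM and the imprinted noncoding RNA *H19* 5.08 and 0.456 CPM. Of the *Igfbp5* UMIs, 45.6% in iWAT_SVF lay in Schwann-marked cells and 71.2% in eWAT_SVF in mesothelial-marked cells, and its ratio was 2.86 over all cells and 3.69 without cells of other types. Retinoid genes held large ratios in both directions. *Crabp1*, which binds retinoic acid in the cytoplasm, had 112 and 1.11 CPM (100.9-fold), while *Aldh1a3* (12.1 and 122 CPM) and *Aldh1a2* (2.96 and 24.4 CPM), which make retinoic acid, were higher in eWAT_SVF. *Vegfd*, a lymphatic growth factor, had 154 and 750 CPM.

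Secreted immune factors followed no single direction. *Cxcl14*, a chemokine, had 807 and 72.4 CPM (11.2-fold), the neutrophil chemokines *Cxcl5* (24.7 and 4.22 CPM) and *Cxcl1* (59.2 and 21.5 CPM) were higher in iWAT_SVF, and *Ccl9* (5.54 and 45.8 CPM) and *Cxcl12* (169 and 477 CPM) in eWAT_SVF. In eWAT_SVF *Cxcl5* had 33.3 CPM in mesothelial-marked cells and 1.71 CPM in the rest, and its ratio went from 2.55 to 3.87 without cells of other types. *Il1rl1*, the IL-33 receptor, had 22.3 and 0.80 CPM. Of 11 complement genes, 4 were at least 2-fold higher in eWAT_SVF and 1 in iWAT_SVF (median -0.80). *C3* had 8.81 and 92.0 CPM and the activating protease *Masp1* 9.12 and 0.496 CPM. Haptoglobin (*Hp*), an acute phase protein, had 2.86 and 120 CPM, with 1.99% of its eWAT_SVF UMIs in mesothelial-marked cells.

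Other acute phase and epithelial genes with large ratios were carried by the mesothelial-marked cells. *Saa3*, serum amyloid A3, had 0.431 and 80.9 CPM, and 94.8% of its eWAT_SVF UMIs lay in those 585 cells; its ratio was -7.55 over all cells and -3.44 without cells of other types. For *Slpi*, a secreted protease inhibitor (6.80 and 123 CPM), the share was 98.1%, and the ratio turned from -4.18 to 1.45. *Tmem108* and *Cxadr* held 98.0% and 89.4% of their eWAT_SVF UMIs there, and their ratios without cells of other types were -0.70 and -1.14. *Upk1b* (0.532 and 31.2 CPM) and *Krt18* (1.20 and 20.6 CPM) are themselves among the markers that chose those cells. On the inguinal side, *Csmd1* (27.3 and 0.952 CPM) held 91.4% of its iWAT_SVF UMIs in 143 cells with Schwann markers, and its ratio went from 4.84 to 1.32. How many of all 399 and 298 genes behaved so was counted: without cells of other types, 343 and 282 were still at least 2-fold higher in the same library, and 11 and 1 turned direction.

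More cells carried UMIs of cell cycle genes in iWAT_SVF. At 5000 UMIs, 3 or more S phase genes were detected in 56.8% of iWAT_SVF cells (55.6% to 57.9%) and 46.0% of eWAT_SVF cells (44.8% to 47.2%), and 8 or more G2 and M phase genes in 34.2% and 23.9%. All 36 G2 and M phase genes were higher in iWAT_SVF, but none at 2-fold (median 0.50), for example *Top2a* at 157 and 97.8 CPM. Without cells that carried 3 or more genes of either list (4803 of 7424 iWAT_SVF and 3639 of 6745 eWAT_SVF cells) the median was 0.03. Those cells were chosen by the same genes, so a shift of the median is built into the choice. Members stayed spread, with *Cenpf* at 1.75 and *Ube2c* at -0.10. The regulators *Cdkn1c*, an imprinted CDK inhibitor (79.9 and 5.43 CPM), and *Ccnd1*, cyclin D1 (179 and 45.5 CPM), differed more, and *Ccnd1* stood at 1.98 over all cells and 2.34 without the cycling ones. Leaving out the cycling cells kept 276 of the 298 and 365 of the 399 genes at 2-fold. Free RNA can add to such counts per cell, and its part was not tested.

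Housekeeping programmes were near each other. None of 79 nuclear oxidative phosphorylation subunits differed 2-fold (median 0.13), and of 80 ribosomal protein genes 1 did (median 0.09). That gene was *Rpl39l*, a paralogue of *Rpl39*, at 76.9 CPM and 0.233 CPM (log2 ratio 8.37, 7.95 to 8.82); *Rpl39* itself had 2999 and 1961 CPM, and how reads were split between the copies was not examined. Cholesterol synthesis genes leaned towards iWAT_SVF (22 of 24 by any amount, 2 at 2-fold, median 0.67), for example *Cyp51* at 138 and 83.1 CPM. *Gsta3*, a glutathione transferase, had 3.84 and 50.1 CPM and *Hpgd*, which breaks down prostaglandins, 0.567 and 12.7 CPM.

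**Figure D4:**
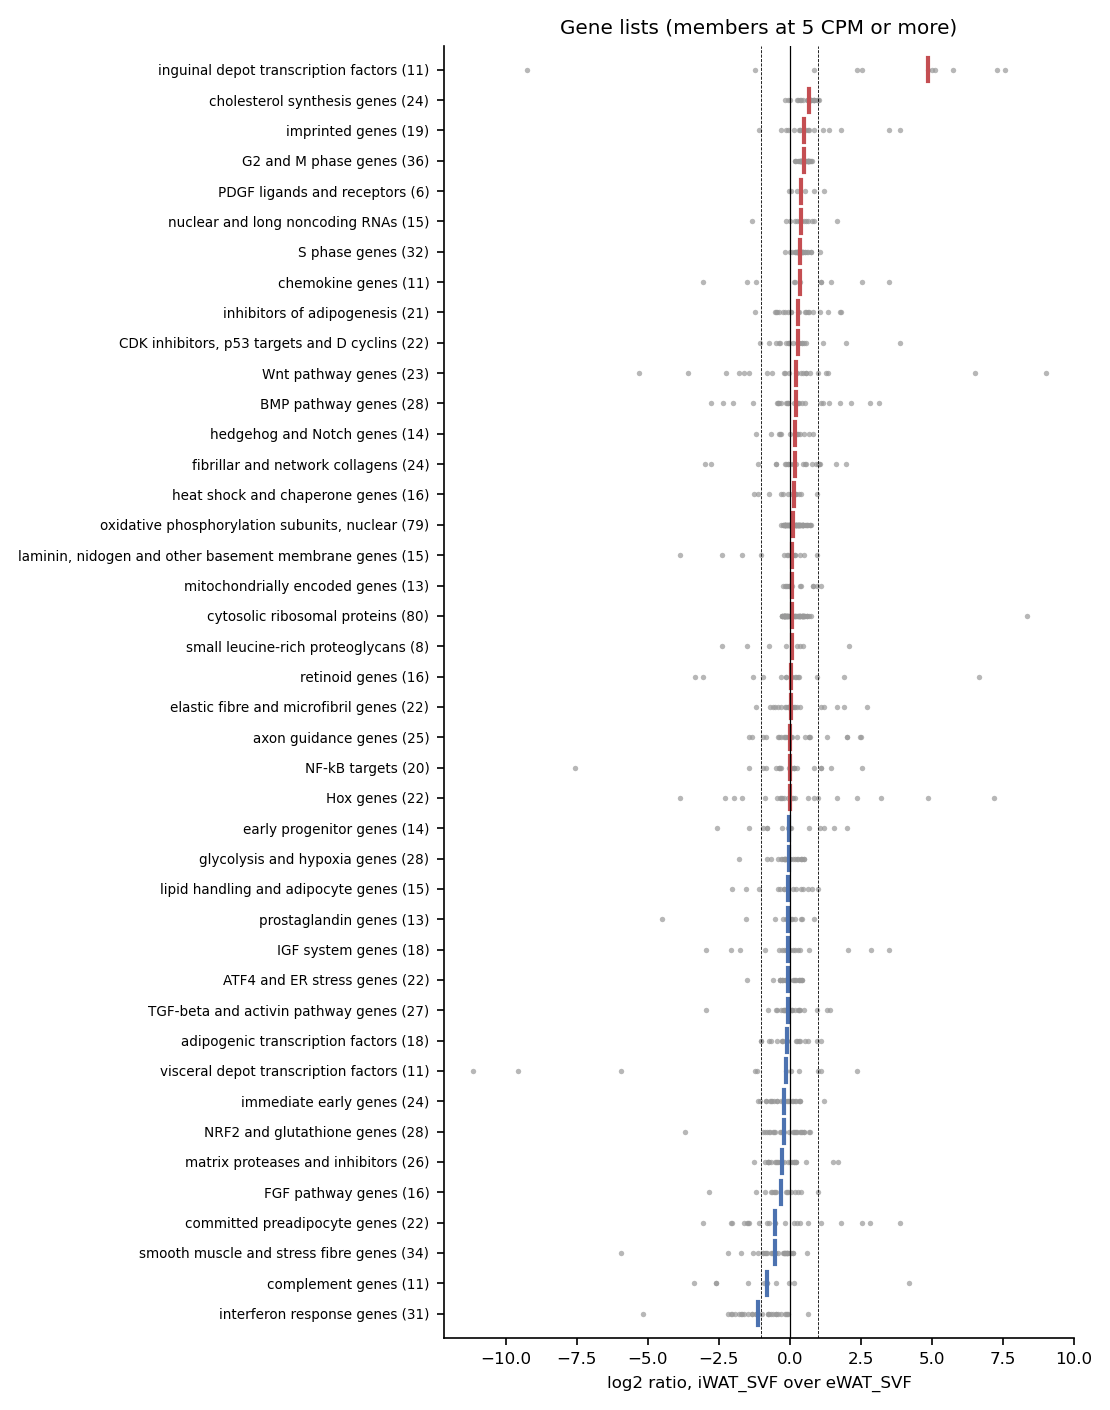
Log2 ratio of iWAT_SVF over eWAT_SVF (x axis) of the members at 5 CPM or more of each gene list (rows, number of members in brackets), as grey points, with the list's median as a bar (red above 0, blue below 0) and 2-fold as dashed lines. The inguinal transcription factors have the highest median (4.87) and the interferon response genes the lowest (-1.12), while 79 oxidative phosphorylation subunits lie within 2-fold. The lists were chosen with earlier results of these data known.

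The depot difference was also read in the DFAT pair, which shares no library with the SVF pair. It may share mice with it: for its culture comparison the paper isolated both fractions side by side from each depot. Whether the sequenced cultures did so is not given. There 861 of 10384 genes (8.29%) were at least 2-fold higher in iWAT_DFAT and 410 (3.95%) in eWAT_DFAT. Of the 298 genes higher in iWAT_SVF, 121 (40.6%) were also at least 2-fold higher in iWAT_DFAT and 24 (8.05%) at least 2-fold lower. Of the 399 genes higher in eWAT_SVF, 155 (38.8%) were also 2-fold higher in eWAT_DFAT and 77 (19.3%) were 2-fold higher in iWAT_DFAT. In these counts a gene had to reach 5 CPM only in the SVF pair. Chosen instead by 5 CPM in the DFAT pair alone, 16.4% of the 861 and 32.7% of the 410 were past 2-fold in the same direction in the SVF pair. At 8-fold in the SVF pair, 38 of 59 and 47 of 63 were past 2-fold in the same direction in the DFAT pair, and 3 and 6 in the opposite direction. Across 9762 genes at 5 CPM in both pairs, Pearson's r was 0.36 and Spearman's rho 0.14, as a description across genes that are not independent.

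Of the 15 genes named for the largest ratio in each direction, 13 and 13 kept that direction in the DFAT pair. *Tbx15*, *Shox2*, *Irx1*, *Crabp1*, *Il1rl1* and *Emb* (a cell adhesion protein, 169 and 11.2 CPM in the SVF libraries) had DFAT ratios of 7.94, 7.05, 8.33, 5.82, 4.35 and 3.98. *Wt1*, *Des*, *Asic3* and *Igfbp2* had DFAT ratios of -7.27, -4.21, -4.54 and -6.32. *Asic3*, an acid-sensing channel, had 1.43 and 33.4 CPM in the SVF libraries.

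The interferon list ran the other way. Of 37 members at 5 CPM in the DFAT pair, 25 were at least 2-fold higher in iWAT_DFAT and none in eWAT_DFAT (median 1.40, against -1.12 in the SVF pair). *Isg15* had a DFAT ratio of 1.07, *Ifit1* 2.81 and *Oasl2* 2.09, whereas *Bst2* was lower in the inguinal library of both pairs (DFAT ratio -0.63). Immediate early genes also differed between pairs, with a median of -0.20 in SVF cells and 1.59 in DFAT cells. Smooth muscle and stress fibre genes leaned to eWAT in both, with 16 of 34 at least 2-fold higher in eWAT_DFAT and a median of -0.97. *Tagln* was at -0.67 in the SVF pair and -3.69 in the DFAT pair, and *Myh11* at -2.17 and -6.14. The adipogenic factors, near -0.10 in SVF cells, had a median of 1.06 in DFAT cells. List medians of the DFAT pair are to be read against its medians over genes grouped by intron length. These ranged from -0.04 to 0.56 and were largest for genes with 300000 or more intron bases.

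**Figure D5:**
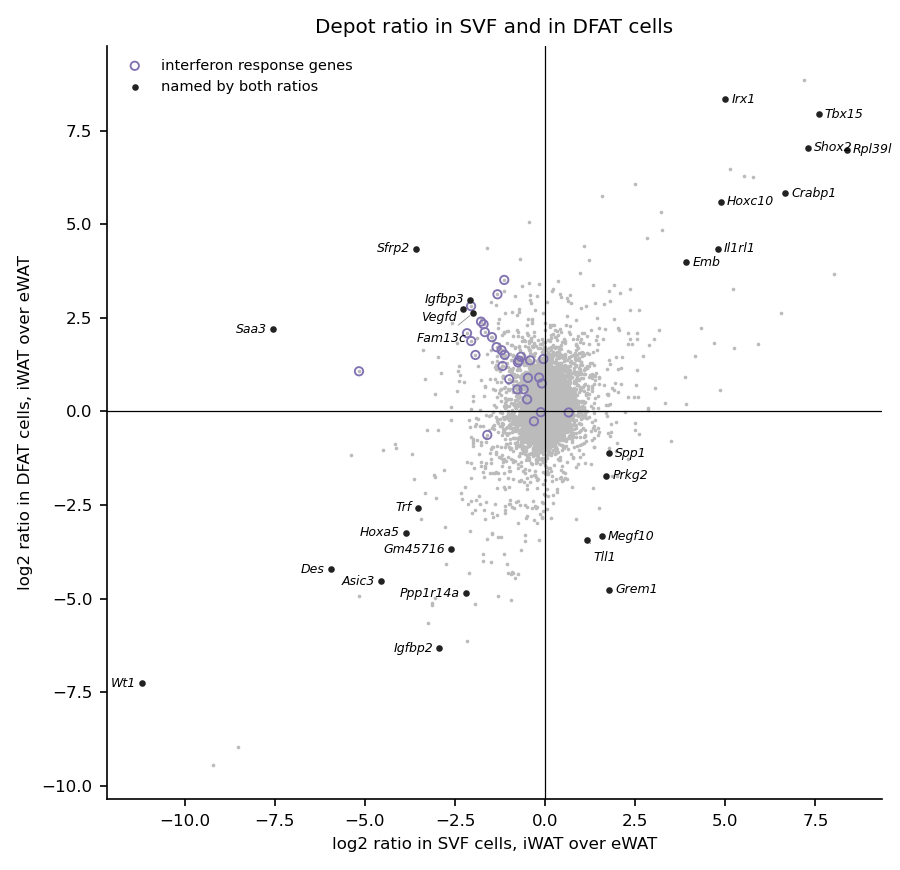
Log2 ratio of iWAT over eWAT in SVF cells (x axis) and DFAT cells (y axis) of 9762 genes at 5 CPM or more in both pairs (grey points), with genes of large shared or opposite ratio named in black and interferon response genes circled. *Tbx15*, *Shox2* and *Hoxc10* stand at the upper right and *Wt1* at the lower left, while most circles stand left of 0 and above 0.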

How the data were processed

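Droplet-based single-cell RNA-seq libraries of cultured SVF cells from iWAT and eWAT were analysed, with the 2 DFAT libraries beside them. The deposited values are raw counts of UMIs per gene and barcode for 32285 genes, made by the authors with Cell Ranger (7.0.0 per the submitters' processing notes; the file headers name other versions) on mm10; the study's methods state that intronic reads were included, which was not checked for each matrix. They precede the authors' CellBender, cell filtering and DoubletFinder steps and include empty droplets. The iWAT_SVF and eWAT_SVF matrices held 242282812 and 241846688 UMIs over 1896243 and 1599387 barcodes.

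Cells were kept at 5000 to 75000 UMIs, 200 to 7500 genes and under 10% mitochondrial UMIs, and UMIs were summed per library. At the 500 UMIs of the stated filter, 7843 and 7353 barcodes passed. Doublets and free RNA were not removed; alternatives left out the 5% of cells with the most UMIs and subtracted free RNA taken as 10% of UMIs. Genes without a UMI were set to 3 counts for ratios. Ratios were counted over genes at 5 CPM or more in the higher library, with 2-fold as the limit for a call. Shares of cells were measured after thinning each cell to 5000 UMIs, and 3 or more distinct markers marked a cell type. Free RNA was read from droplets with 1 to 100 UMIs.

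Gene coordinates and lengths came from GENCODE M21 (32235 IDs matched, 99.8%) and promoter windows from RefSeq (GRCm38.p6, 32851 windows of 27025 genes). The rule and the 43 gene lists were chosen with earlier results of these data known. Genes were named by rule: the 15 largest ratios in each direction at 20 CPM or more; all members of the inguinal, visceral and Hox lists; the 3 largest in each direction and the 2 most abundant of every other list; the 8 largest in each direction among the 200 most abundant genes; the 8 largest in each direction shared with the DFAT pair and the 5 of each opposite pattern; and cell type markers. Some genes that the rule picked are not reported here by name, but they remain in the counts and medians.

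In simulated counts for this comparison, over 10135 genes with 200 changed, true log2 ratios of 1.5 and 3 were estimated at medians of 1.50 and 3.00, and 97% and 94% of the 95% intervals held them. These counts were drawn from the Poisson model on which the intervals rest, without spread between cells or cultures. The simulation therefore checks the calculation only, not how the intervals hold in these data. Alternatives changed the cell filter, the cells included, the weighting of cells, free RNA, scaling, the level limit and gene length. The scripts ran under Python 3.11.15 with pandas 2.3.3, scipy 1.17.1, numpy 2.4.6 and matplotlib 3.10.9.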

Additional observations from a re-analysis of the deposited data

Results flagged for a closer look

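In 10 genes, chosen as those with the largest opposite ratios at 20 CPM or more in both pairs, the SVF libraries lay one way and the DFAT libraries the other. The difference between the pairs was not tested, since each group is 1 library. Higher in iWAT among SVF cells and in eWAT among DFAT cells were *Grem1* (log2 ratios of 1.77 and -4.76), *Megf10* (1.57 and -3.33), *Tll1* (1.17 and -3.44), *Prkg2* (1.69 and -1.72) and *Spp1*, osteopontin (1.78 and -1.12). Higher in eWAT among SVF cells and in iWAT among DFAT cells were *Saa3* (-7.55 and 2.19), *Sfrp2* (-3.59 and 4.35), *Vegfd* (-2.28 and 2.72), *Igfbp3* (-2.07 and 2.98) and *Fam13c* (-2.003 and 2.62). *Saa3* and *Sfrp2* stood higher in the mesothelial-marked cells of eWAT_SVF (963 and 205 CPM) than in its remaining cells (4.53 and 7.45 CPM), and without mesothelial-marked cells their ratios were -3.38 and -1.94, still past 2-fold towards eWAT_SVF. Over all 9762 genes at 5 CPM in both pairs, 85 were past 2-fold in opposite directions, 14 of them higher in iWAT_SVF and 71 higher in eWAT_SVF. These counts are to be read against the shares in the DFAT pair, where 3.95% of genes were at least 2-fold higher in eWAT_DFAT and 8.29% in iWAT_DFAT. An imbalance between the 2 patterns follows in part from those shares.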

How the results depend on the processing

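No paired analysis was possible because each depot has 1 library, and for the same reason no replicate could be left out. Over the alternatives run, the share of genes at least 2-fold higher ranged from 2.23% to 5.09% for iWAT_SVF and from 3.33% to 5.45% for eWAT_SVF; the highest values, 5.09% and 5.45%, came with a limit of 1 CPM, which admits genes with fewer counts. The median log2 ratio over all genes was -0.00873 among genes with under 5000 intron bases, against 0.05. Of the named genes past 2-fold over all cells, these turned direction: without cells with markers of other types *Slpi* stood at 1.45, *Krt7* at 0.24, *Krt18* at 0.21, *Egfl7* at 0.043 and *Col18a1* at -0.35 (*Krt7*, *Krt18* and *Egfl7* are markers that chose the cells left out, so theirs follow from the choice); without only the mesothelial-marked cells (chosen after seeing the data) *Slpi* stood at 1.44, *Krt7* at 0.17 and *Krt18* at 0.80; and with free RNA subtracted *Gm42418* stood at 14.39, from -1.34. *Gm42418* overlaps ribosomal RNA sequence and made up 7040 CPM of free RNA in iWAT_SVF and 66645 CPM in eWAT_SVF, so its ratio is uncertain. In eWAT_SVF it had 2968 CPM in mesothelial-marked cells and 2573 CPM in the rest. Free RNA taken as 10% of UMIs held more of it than that, so its eWAT_SVF level fell to the 3-count floor. The value of 14.39 is therefore set by that floor and is not a measured turn. For this gene, a free RNA share of 10% was too high in eWAT_SVF. Of the other values of named genes, 2944 stayed inside their main counting interval and 1427 did not. Among these are sign changes of genes that were within 2-fold over all cells, for example *Pecam1*, an endothelial marker that likewise chose cells left out, from -0.89 to 1.22 without cells of other types, and *Emcn*, another, from -0.55 to 0.48 without cells with 3 or more S or G2 and M genes and to -1.67 without cells of other types. A limit of 500 UMIs kept all 298 and 399 genes at 2-fold. Shares of marked cells were run with and without thinning and with 2 or 3 markers, and not under the other alternatives. Depth limits genes under 5 CPM in both libraries, and no depth can stand in for a second culture.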

Other observations

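*Krt19*, a keratin listed as a mesothelial marker, was the only 1 of the 10 markers higher in iWAT_SVF (70.7 and 8.51 CPM, log2 ratio 3.05). In iWAT_SVF its level was 71.1 CPM outside the endothelial-marked cells and 71.3 CPM outside the Schwann-marked cells.

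Guidance genes for growing axons held large ratios mostly towards iWAT_SVF, with 5 of 25 at least 2-fold higher there and 2 in eWAT_SVF. *Sema3a* had 63.2 and 11.3 CPM, with a ratio of 2.48 over all cells and 3.205 without cells of other types, and the netrin receptor *Unc5c* 11.8 and 2.09 CPM, while *Efna5* had 31.1 and 84.01 CPM, with 61.2% of its eWAT_SVF UMIs in mesothelial-marked cells. Without cells of other types the ratio of *Efna5* went from -1.43 to -0.16, within 2-fold. Of 19 imprinted genes, 5 were at least 2-fold higher in iWAT_SVF and 1 in eWAT_SVF (median 0.50), led by *Cdkn1c* and *H19*, while *Peg10* had 7.57 and 15.9 CPM.

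Short transcripts leaned towards iWAT_SVF. The 81 genes with under 700 exon bases had a median ratio of 0.40, against -0.02 to 0.11 in the length groups from 700 bases upwards. In the DFAT pair the same group had 0.04. Among ribosomal protein genes *Rps28* had 2030 and 1203 CPM and *Rpl31* 1223 and 762 CPM, while *Rpl13* had 5355 and 6535 CPM. The cause was not tested. The 4 Y-linked genes at level differed by less than 2-fold (*Ddx3y* at 70.2 and 68.4 CPM).

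The lists not described so far stood as follows, each with members at 5 CPM or more, those at least 2-fold higher in iWAT_SVF and in eWAT_SVF, and the median ratio. Of 26 matrix proteases and inhibitors 2 and 1 were past 2-fold (median -0.29), and of 8 small leucine-rich proteoglycans 1 and 2 (0.06). Of 27 TGF-beta and activin genes 2 and 1 were past it (-0.08), of 16 FGF genes 0 and 2 (-0.30), of 6 PDGF genes 1 and 0 (0.39), and of 14 hedgehog and Notch genes 0 and 1 (0.20). NF-kappaB targets had 4 and 2 of 20 past it (0.02) and chemokines 5 and 3 of 11 (0.35). Among stress lists, 0 and 2 of 16 heat shock genes (0.15) and 0 and 1 of 22 ATF4 targets (-0.08) were past 2-fold. So were 0 and 1 of 28 NRF2 and glutathione genes (-0.21) and 1 and 2 of 24 immediate early genes (-0.20). Towards eWAT_SVF these were 12.5%, 4.55%, 3.57% and 8.33% of members, against 3.94% of all genes. Towards iWAT_SVF they were 0%, 0%, 0% and 4.17%, against 2.94%. Of 28 glycolysis and hypoxia genes 0 and 1 were past 2-fold (-0.04), of 13 mitochondrially encoded genes 1 and 0 (0.09), of 13 prostaglandin genes 0 and 2 (-0.05), of 22 CDK inhibitors, p53 targets and D cyclins 3 and 1 (0.28) and of 15 long noncoding RNAs 1 and 1 (0.38).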
